A study of Sus scrofa with 12 samples.

Results

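Tissue inhibitors of metalloproteinases (TIMP) and matrix metalloproteases (MMP) were followed in stented pig coronary arteries through 7 genes, TIMP1, TIMP2, TIMP3, MMP1, MMP2, MMP3 and MMP12. Every probe set whose only gene symbol in the platform's annotation was one of these 7 was taken, which gave 12 of the 24123 probe sets on the array. They cover 6 of the 7 genes, of 6765 genes named on the array in this way: TIMP1, MMP1 and MMP2 had 1 probe set each, TIMP2 had 2, TIMP3 had 3 and MMP3 had 4. No probe set carried the symbol MMP12 alone, and MMP12, the macrophage elastase, was not analysed here.

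The tissue came from 6 Yorkshire farm pigs, each fitted with 1 type of stent in 2 coronary arteries, and was collected 28 days after angioplasty. The types were sirolimus-eluting stents (SES), zotarolimus-eluting stents (ZES) and bare metal stents (BMS), with 4 arrays from 2 pigs each, numbered so that arrays 1 and 2 share a pig and arrays 3 and 4 share the other. SES 1 was a left circumflex segment, SES 2 and SES 3 were right coronary artery (RCA) segments and SES 4 was a left anterior descending (LAD) segment. Among the ZES and BMS arrays, numbers 1 and 3 were RCA and numbers 2 and 4 were LAD segments. All 12 segments had undergone angioplasty and held a stent, so the series has no uninjured artery among the groups used here. Each array reads the whole tissue dissected from a stent, in which less RNA per cell and fewer cells of a type cannot be told apart. Zotarolimus is an analog of sirolimus in which a tetrazole ring replaces a hydroxyl group, and both bind FKBP proteins and inhibit the mTOR kinase. The labels give no drug dose, stent platform, sex or age of the pigs, and do not say which part of a segment lay under stent overlap.

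Matrix metalloproteases are zinc enzymes that are secreted as inactive precursors and, once activated, cut collagens, proteoglycans and other proteins of the extracellular matrix. TIMP proteins bind the active site of these enzymes and block it, so that the balance of enzyme and inhibitor sets how fast matrix is removed. In injured arteries this system is known for letting smooth muscle cells leave the media and for shaping the neointima.

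Values are log2 MAS5 signals, and 1 unit is a doubling. A probe set was counted as above background on an array where its value exceeded the 95th percentile of 59 control probe sets for sequences not present in the sample. By this measure 4 of the 12 probe sets, those of TIMP1, TIMP2 and MMP2, were above background on all 12 arrays, and the other 8 were above it on 3 to 7 arrays. Control probe sets differed between the groups: this background level was 4.15 to 5.39 on SES, 4.19 to 5.16 on ZES and 5.27 to 5.96 on BMS arrays. The mean of the spike-in controls was 14.6 to 15.6 on SES, 14.6 to 15.9 on ZES and 15.7 to 16.5 on BMS arrays. The GAPDH probe sets at the 3′ end exceeded those at the 5′ end, a gauge of RNA and cDNA length, by 2.33 to 3.02 on SES, 3.44 to 3.91 on ZES and 3.64 to 4.63 on BMS arrays. Smooth muscle contractile markers were present everywhere: 12 to 14 of the 14 tested markers were above background on each array. Their mean was 9.41 to 11.84 on SES, 10.09 to 12.75 on ZES and 11.79 to 12.81 on BMS arrays. None of the 12 arrays duplicated another.

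TIMP1 rose in SES segments relative to BMS segments, by 1.43 on the log2 scale or 2.69-fold. It was the only one of the 9 tested probe sets of these genes that passed the threshold in any comparison. TIMP1 is a secreted inhibitor of most soluble MMPs, including collagenases and gelatinases, and is also known as a growth factor-like protein. Its log2 signal was 13.91, 14.45, 13.97 and 14.43 on SES 1 to 4, 14.45, 13.00, 13.62 and 13.37 on ZES 1 to 4, and 12.63, 13.15, 12.52 and 12.76 on BMS 1 to 4. The lowest SES array was above the highest BMS array, whereas the ZES arrays were spread across both groups, with ZES 2 below BMS 2 and ZES 1 level with the top of SES. Group means were 14.19 ± 0.29 for SES, 13.61 ± 0.61 for ZES and 12.76 ± 0.27 for BMS (SD, n = 4 arrays each).

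**Figure D1:**
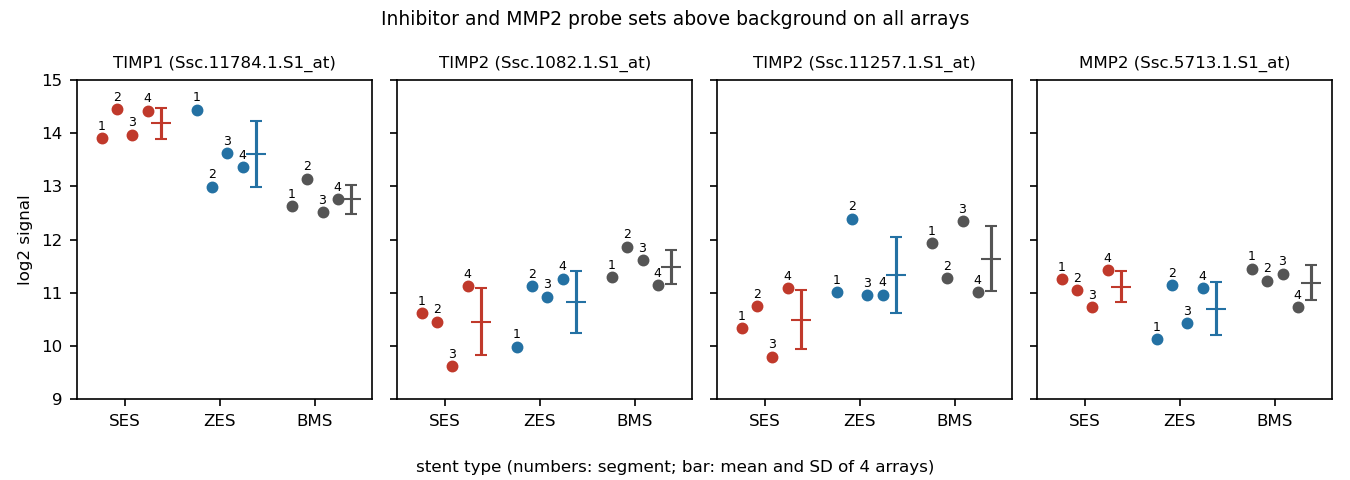
Log2 signal (y axis) of the TIMP1 probe set, both TIMP2 probe sets and the MMP2 probe set on each array of the 3 stent types (x axis); points carry the array number, and bars show the mean and SD of 4 arrays. All 4 TIMP1 points of SES lie above those of BMS, 12.52 to 13.15, while the MMP2 points of SES and BMS cover nearly the same range.

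The SES minus BMS difference of TIMP1 had an SE of 0.29 and a 95% interval of 0.81 to 2.05 (limma with the pig as a random block, Benjamini-Hochberg adjusted p = 0.0336 over 16799 probe sets). It ranked at place 74 by p-value. In this comparison 0.679% of all tested probe sets were called, and 0.494% were called as higher in SES. Groups without overlap, with every SES array higher than every BMS array, were found for 4.23% of tested probe sets. Means per pig were 14.18 and 14.20 for the SES pigs, 13.72 and 13.50 for the ZES pigs and 12.89 and 12.64 for the BMS pigs, so both SES pigs were above both BMS pigs. ZES minus BMS was 0.85 (SE 0.29, 95% interval 0.23 to 1.46, adjusted p = 0.425), with 0% of probe sets called. ZES minus SES was -0.58 (SE 0.29, 95% interval -1.20 to 0.04, adjusted p = 0.529), with 0.0714% called. An F test across the 3 stent types gave TIMP1 an adjusted p of 0.0792, where 0.345% of probe sets were called.

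The TIMP1 call rested on a narrow margin. The difference stayed positive in all 32 alternative settings, between 0.886 and 1.64, and passed the threshold in 18 of them. The correlation between arrays of a pig was estimated at -0.0322, so the main fit took them as about independent. Without a pig block the SE was 0.301 in place of 0.294. In the fit on means per pig, with 2 pigs a group, the difference was 1.43 and did not pass (adjusted p = 0.0695). It also did not pass without either SES pig or without either BMS pig, with adjusted p between 0.0603 and 0.330. It lost the threshold without SES 1 (1.52, adjusted p = 0.0813), without SES 2 (1.34, adjusted p = 0.102) and without SES 3 (1.50, adjusted p = 0.138). The same held without BMS 1 (1.39, adjusted p = 0.0779) and without BMS 3 (1.34, adjusted p = 0.0798). With the level of the spike-in controls added to the model the difference was 0.89 (adjusted p = 0.820). With the GAPDH difference added it was 1.53 (adjusted p = 0.763). Neither control measure overlapped between SES and BMS arrays. Over all probe sets, calls went from 114 to 11, 13 and 0 without SES 1, SES 2 and SES 3, and to 0 with either control measure. They were 39 and 76 without BMS 1 and BMS 3, and 64 on means per pig. Leaving out a pig gave 1 and 118 calls for the SES pigs and 69 and 405 for the BMS pigs.

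Marker genes of several cell types differed between SES and BMS arrays along with TIMP1, and their part in the result was not tested. Of all 5793 genes tested with 1 probe set each, 49.5% were higher in SES, and 39 passed as higher and 13 as lower. All 14 tested smooth muscle markers were lower in SES, with a median difference of -2.12, and 0 passed. The log2 of their summed signal was 15.86 to 17.75 on SES, 16.27 to 18.44 on ZES and 17.63 to 18.44 on BMS arrays. Of 7 T and NK cell markers, 6 were higher in SES and 2 passed, and the log2 of their sum was 9.72 to 10.91 on SES, 8.34 to 10.02 on ZES and 8.27 to 8.62 on BMS arrays. Of 5 neutrophil markers, 3 were higher and 0 passed, with a sum of 11.19 to 14.48 on SES, 12.53 to 14.02 on ZES and 11.55 to 12.72 on BMS arrays. Of 12 macrophage markers, 6 were higher and 0 passed, with a sum of 14.70 to 15.51 on SES, 14.86 to 15.34 on ZES and 14.88 to 16.24 on BMS arrays. No marker of these 4 lists was listed at 0 on any array. The smooth muscle mean was 9.50, 9.41, 9.87 and 11.84 on SES 1 to 4, 10.09, 12.75, 12.34 and 12.27 on ZES 1 to 4, and 12.67, 12.81, 11.79 and 11.93 on BMS 1 to 4. ZES 1 was the lowest ZES array on these markers and the highest ZES array on TIMP1. SES 4 was the highest SES array on these markers and close to the top of its group on TIMP1. The relation of these markers to TIMP1 over the arrays was not tested.

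TIMP2 ran the other way on both of its probe sets, with lower means in SES than in BMS, but neither difference passed the threshold. TIMP2 blocks active MMPs and, in complex with the membrane protease MMP14, also takes part in the activation of the MMP2 precursor. The first probe set (Ssc.1082.1.S1_at) gave 10.62, 10.46, 9.62 and 11.13 on SES 1 to 4, 9.99, 11.13, 10.93 and 11.27 on ZES 1 to 4, and 11.30, 11.87, 11.61 and 11.15 on BMS 1 to 4. Every SES array was below every BMS array, though SES 4 and BMS 4 differed by little, and 4.51% of tested probe sets showed this pattern. The second (Ssc.11257.1.S1_at) gave 10.34, 10.75, 9.81 and 11.09 on SES 1 to 4, 11.02, 12.40, 10.96 and 10.97 on ZES 1 to 4, and 11.94, 11.27, 12.35 and 11.02 on BMS 1 to 4. Here SES 4 was above BMS 4, so the groups overlapped, and ZES 2 was the highest of all 12 arrays.

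SES minus BMS was -1.02 (SE 0.35, 95% interval -1.77 to -0.28, limma adjusted p = 0.180) for the first TIMP2 probe set. It was -1.15 (SE 0.39, 95% interval -1.97 to -0.33, adjusted p = 0.172) for the second. The 2 probe sets gave signals 2.03-fold and 2.22-fold lower in SES. ZES minus BMS was -0.65 (adjusted p = 0.612) and -0.31 (adjusted p = 0.854) on the 2 probe sets. ZES minus SES was 0.37 (95% interval -0.38 to 1.11, adjusted p = 0.794) and 0.84 (95% interval 0.02 to 1.66, adjusted p = 0.492). Over the 12 arrays, which share pigs and stent types, the 2 probe sets had a Pearson r of 0.68 and a Spearman rho of 0.66 with each other. SES 4, the LAD segment with the highest smooth muscle marker mean of its group, was also the highest SES array on both TIMP2 probe sets. Whether the smooth muscle share of the tissue bears on TIMP2 was not tested.

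TIMP3 signals were low and scattered about background, with a few arrays clearly above it. This inhibitor differs from the other TIMPs in binding to the matrix itself and in also blocking ADAM proteases. Only 1 of its 3 probe sets (Ssc.9661.1.S1_at) passed the filter on low means. It gave 5.15, 7.72, 0 and 4.47 on SES 1 to 4, 7.30, 6.57, 3.77 and 5.67 on ZES 1 to 4, and 6.19, 5.22, 4.82 and 5.70 on BMS 1 to 4, and was above background on 7 of the 12 arrays. SES 3 was listed at 0, and the SES arrays spread over the whole range of the other groups. SES 2 was at 7.72 against a background of 4.15, and ZES 1 at 7.30 against 4.19. SES minus BMS was -1.15 with an SE of 1.24, ZES minus BMS was 0.34 and ZES minus SES was 1.49, with limma adjusted p of 0.719, 0.957 and 0.752. The other TIMP3 probe sets, Ssc.16028.1.S1_at and Ssc.16028.1.A1_at, were above background on 5 and 4 arrays and were not tested. Their values ran from 0.13 to 6.43 and from 0.96 to 6.02 over the 12 arrays, and all 3 groups overlapped on both.

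**Figure D2:**
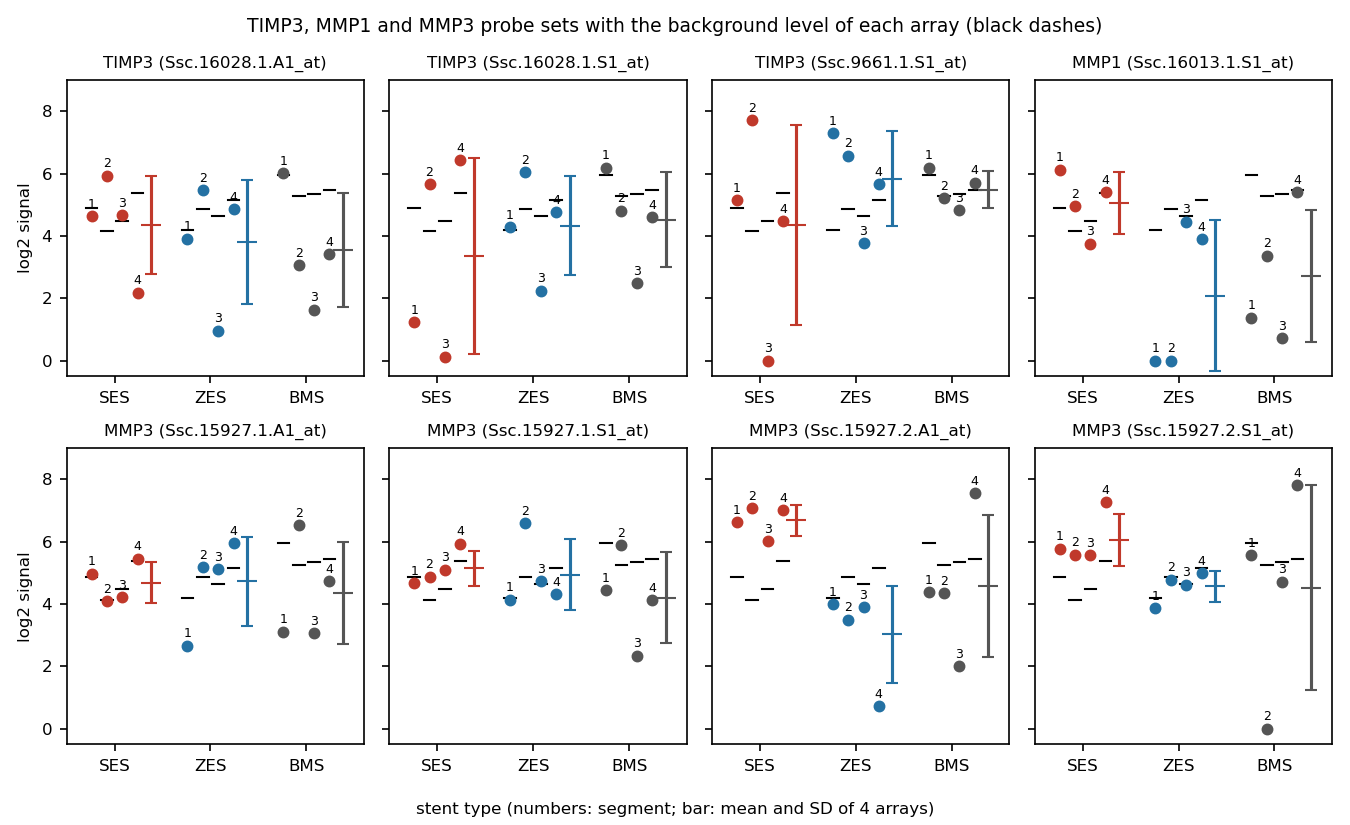
Log2 signal (y axis) of the 8 probe sets of TIMP3, MMP1 and MMP3 on each array of the 3 stent types (x axis); points carry the array number, bars show the mean and SD of 4 arrays, and each black dash is the background level of the array. On the MMP3 probe set Ssc.15927.2.A1_at all 4 SES points lie above their dashes and all 4 ZES points below theirs.

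MMP2 showed no difference that passed the threshold. MMP2, gelatinase A, cuts denatured collagen and the type IV collagen of basement membranes and is made by smooth muscle cells and fibroblasts. Its log2 signal was 11.26, 11.05, 10.74 and 11.43 on SES 1 to 4, 10.14, 11.15, 10.44 and 11.09 on ZES 1 to 4, and 11.46, 11.23, 11.36 and 10.73 on BMS 1 to 4. The 3 groups overlapped, and the 2 lowest arrays were ZES 1 and ZES 3. Means were 11.12 ± 0.30 for SES, 10.70 ± 0.50 for ZES and 11.19 ± 0.32 for BMS (SD, n = 4 arrays each). SES minus BMS was -0.073, with a 95% interval of -0.71 to 0.56 (limma adjusted p = 0.941), and differences inside that interval are within the error. ZES minus BMS was -0.49 (95% interval -1.13 to 0.14, adjusted p = 0.652). ZES minus SES was -0.42 (95% interval -1.05 to 0.22, adjusted p = 0.698). On ZES 1, the array with the lowest MMP2, the mean of 12 fibroblast and adventitial markers was 8.95, which was also the lowest of the 12 arrays, and its part in the MMP2 value was not tested.

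MMP1 was above background on SES arrays alone, on 3 of the 4. MMP1 is the interstitial collagenase, which makes the first cut in fibrillar collagen. Its probe set gave 6.12, 4.94, 3.75 and 5.41 on SES 1 to 4, 0, 0, 4.46 and 3.89 on ZES 1 to 4, and 1.37, 3.37, 0.71 and 5.40 on BMS 1 to 4. Both ZES arrays of 1 pig were listed at 0, and no ZES or BMS array was above its background level. The split was narrow: SES 4 was at 5.41 against a background of 5.39, and BMS 4 at 5.40 against 5.46. BMS 4 was higher than SES 2, which counted as above its lower background of 4.15. The probe set fell under the filter on low means and was left out of the main test. Without the filter, ZES minus SES was -2.97 (SE 1.28, limma adjusted p = 0.495). The mean SES signal was at least 1.26-fold above the ZES background, a bound that leaves out the error between arrays. SES minus BMS was 2.34 (SE 1.28, adjusted p = 0.463), for which no fold is given because the BMS background level was no lower than the SES signal.

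MMP3 was above background on every SES array and on no ZES array on 2 of its 4 probe sets, without passing the threshold. These 2 derive from the same design sequence and are not independent readings. MMP3, stromelysin 1, cuts proteoglycans, fibronectin and laminin and activates other MMP precursors, including that of MMP1. The probe set Ssc.15927.2.A1_at gave 4.00, 3.50, 3.91 and 0.72 on ZES 1 to 4, 6.63, 7.09, 6.02 and 7.01 on SES 1 to 4, and 4.37, 4.35, 2.0 and 7.56 on BMS 1 to 4. Ssc.15927.2.S1_at gave 3.87, 4.79, 4.63 and 4.98 on ZES 1 to 4, 5.78, 5.59, 5.57 and 7.28 on SES 1 to 4, and 5.57, 0, 4.73 and 7.81 on BMS 1 to 4. On both, every ZES array was below every SES array, a pattern that 3.06% of tested probe sets showed, and BMS 4 was the highest of all 12 arrays and the only BMS array above background. The counts above background hang on the level of each array, and no share of all probe sets with this split was counted. On Ssc.15927.2.S1_at, ZES 3 was at 4.63 against a background of 4.65. BMS 1 and SES 3 were both at 5.57, and only SES 3 counted as above, with backgrounds of 5.96 and 4.47.

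For Ssc.15927.2.A1_at, ZES minus SES was -3.65 (SE 1.09, limma adjusted p = 0.224), and the signal was at least 3.91-fold higher in SES than the ZES background. For Ssc.15927.2.S1_at it was -1.49 (SE 1.21, adjusted p = 0.739), and at least 2.52-fold higher in SES. SES minus BMS was 2.11 (adjusted p = 0.391) and 1.53 (adjusted p = 0.593) on these probe sets, and ZES minus BMS was -1.54 (adjusted p = 0.701) and 0.043 (adjusted p = 0.993). The remaining MMP3 probe sets, Ssc.15927.1.A1_at and Ssc.15927.1.S1_at, were above background on 6 arrays each. Their ZES minus SES differences were 0.041 (adjusted p = 0.993) and -0.20 (adjusted p = 0.966). The 4 MMP3 probe sets thus disagreed on the ZES minus SES difference. The A1 and S1 members of a pair derive from the same design sequence, and the labels do not say which of them reads the messenger RNA.

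**Figure D3:**
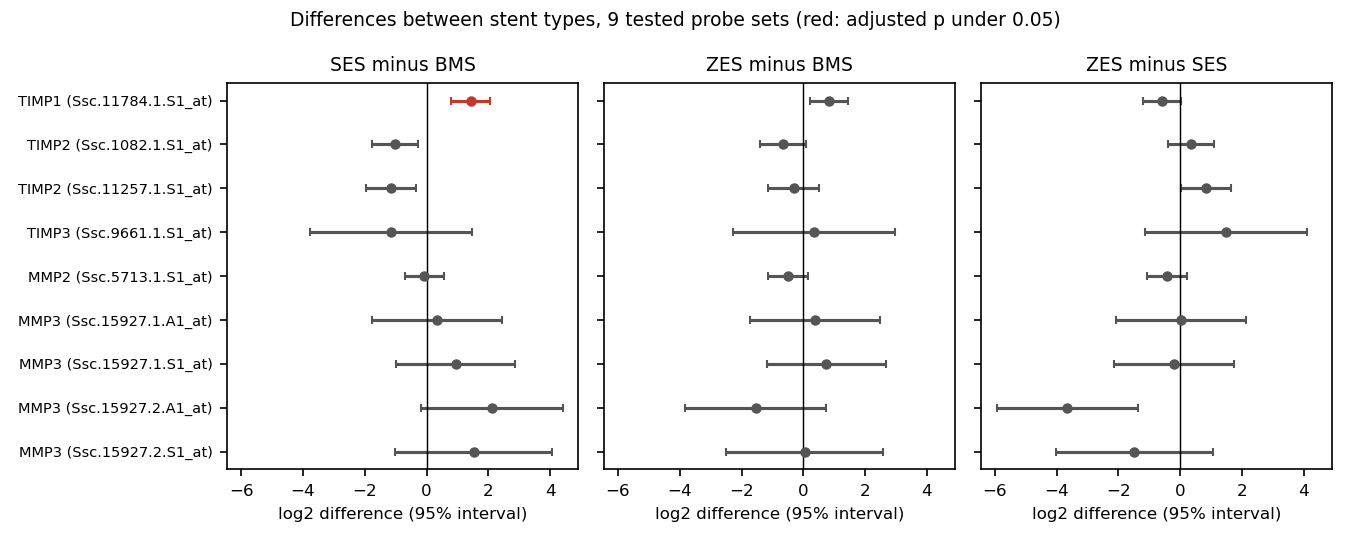
Log2 differences (x axis) with 95% intervals for the 9 tested probe sets (y axis) in SES minus BMS, ZES minus BMS and ZES minus SES. The interval of TIMP1 in SES minus BMS, 0.81 to 2.05, is the only one drawn in red, for an adjusted p under 0.05.

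Counted over these genes, 1 of the 9 tested probe sets passed for SES minus BMS, 0 passed for ZES minus BMS and 0 for ZES minus SES (limma, adjusted over 16799 probe sets). At an unadjusted p under 0.05 the counts were 3, 1 and 2 of 9, where 14.3%, 8.99% and 10.0% of all tested probe sets reached that level. Of the 2 for ZES minus SES, 1 was the MMP3 probe set Ssc.15927.2.A1_at, which passed the filter on low means in part through its SES signal. These genes were chosen with earlier results of these data known, so the counts are descriptions. The comparisons with BMS share the 4 BMS arrays, and ZES minus SES shares the SES and ZES arrays with them. For the pair of related drugs, 9 probe sets were compared at the same day and at unknown doses, and no difference passed. The intervals of TIMP1 and MMP2 nevertheless allow ZES values lower than SES by up to 1.20 and 1.05 on the log2 scale.

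The arteries were compared within pigs, with LAD and RCA segments of the same animal in 5 pigs. None of the 9 probe sets passed for LAD minus RCA, where 0% of all tested probe sets were called and 1 of the 9 had an unadjusted p under 0.05 against 6.86% of all. That probe set was the MMP3 probe set Ssc.15927.1.A1_at, with a difference of 1.94 (SE 0.88, limma adjusted p = 0.723). TIMP1 differed by -0.097 (adjusted p = 0.965), the TIMP2 probe sets by 0.62 (adjusted p = 0.730) and 0.14 (adjusted p = 0.960), and MMP2 by 0.30 (adjusted p = 0.852). Of all genes tested with 1 probe set each, 50.6% had a positive LAD minus RCA difference. Heart muscle markers were positive for 8 of 8 genes, with a median of 1.86. Smooth muscle markers were positive for 13 of 14, with a median of 1.0, and 0 of either list passed. The part of both lists in these values was not tested.

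Pairs of arteries did not move alike under each stent. For TIMP1, LAD minus RCA was -1.45 and -0.25 in the ZES pigs, 0.45 in the SES pig and 0.52 and 0.24 in the BMS pigs. On the TIMP2 probe set Ssc.11257.1.S1_at it was 1.38 and 0.014 in the ZES pigs, 1.29 in the SES pig and -0.66 and -1.34 in the BMS pigs. MMP2 gave 1.01 and 0.65 in the ZES pigs, 0.69 in the SES pig and -0.23 and -0.63 in the BMS pigs. The other TIMP2 probe set, Ssc.1082.1.S1_at, gave 1.14 and 0.34 in the ZES pigs, 1.51 in the SES pig and mixed signs, 0.57 and -0.46, in the BMS pigs. A limma fit chosen after the values were seen took the difference of these artery differences, ZES minus BMS. It was -1.23 for TIMP1 (adjusted p = 0.607) and 1.26 for MMP2 (adjusted p = 0.624). For TIMP2 it was 1.70 on Ssc.11257.1.S1_at (adjusted p = 0.561) and 0.69 on Ssc.1082.1.S1_at (adjusted p = 0.773). No probe set of 16799 passed in that fit, and 1376 had an unadjusted p under 0.05. Opposite signs in both ZES pigs and both BMS pigs were found for 3 of the 9 tested probe sets of these genes, against 17.4% of all tested probe sets.

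**Figure D4:**
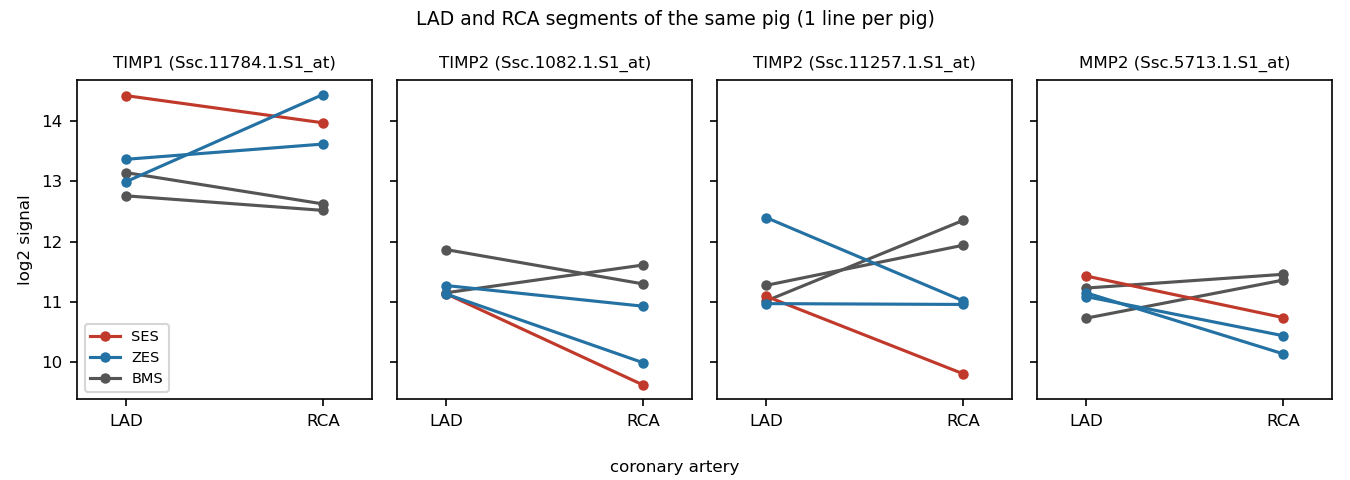
Log2 signal (y axis) of TIMP1, both TIMP2 probe sets and MMP2 in LAD and RCA segments (x axis), with 1 line per pig coloured by stent type. LAD minus RCA of TIMP1 is -1.45 and -0.25 in the ZES pigs and runs the other way, at 0.52 and 0.24, in the BMS pigs.

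Other members of the MMP and TIMP families were sparsely represented: 3 of 21 listed genes had a tested probe set, and none passed in any comparison. MMP9, gelatinase B of neutrophils and macrophages, averaged 11.39 on SES, 12.07 on ZES and 9.68 on BMS arrays. Its differences were 1.71 for SES minus BMS (SE 0.87, limma adjusted p = 0.387) and 2.39 for ZES minus BMS (SE 0.87, adjusted p = 0.446). MMP14, the membrane protease that activates MMP2 together with TIMP2, averaged 4.71 on SES, 6.04 on ZES and 6.09 on BMS arrays, with SES minus BMS at -1.38 (adjusted p = 0.460). MMP14 was above background on 10 arrays, and its SES mean lay within the SES background levels of 4.15 to 5.39. MMP20, the enamel protease, was above background on 6 arrays. The probe sets of MMP7, MMP13 and TIMP4 were above background on 0 to 2 arrays and were not tested. In the pig gene order of the RefSeq annotation, MMP7, MMP20, MMP27, MMP8, MMP1, MMP3, MMP12 and MMP13 stand next to each other, and of these MMP27, MMP8 and MMP12 had no probe set of their own.

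Proteases and inhibitors outside the family were counted from lists, beside 5793 genes tested with 1 probe set each, of which 39 rose and 13 fell for SES minus BMS with a median difference of -0.0064. These lists and those below were written with earlier results of these data known, so their counts are descriptions. Of 6 tested ADAM and ADAMTS proteases, 4 had a positive and 2 a negative difference for SES minus BMS, and 0 passed. ADAM28, a membrane protease of lymphocytes, was nearest to the threshold, at -2.55 (SE 0.62, limma adjusted p = 0.0670). Of 9 genes of plasminogen activation and serine protease inhibition, 6 had a positive difference and 0 passed, with a median of 0.42. TFPI2, a serine protease inhibitor of the matrix, was at 1.97 (adjusted p = 0.0598), tissue plasminogen activator PLAT at 2.13 (adjusted p = 0.0906) and the broad protease inhibitor A2M at -2.25 (adjusted p = 0.120). Of 6 genes that activate, bind or clear MMPs, 0 passed, and TFPI2 also had the smallest p among them.

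Among 10 tested cysteine cathepsins and cystatins, CTSC rose in SES by 2.54 relative to BMS (SE 0.46, limma adjusted p = 0.0221), and the other 9 did not pass. CTSC, cathepsin C, activates the serine proteases of neutrophils and cytotoxic lymphocytes, and averaged 14.52 on SES, 12.73 on ZES and 11.98 on BMS arrays. The list was evenly split for SES minus BMS, with 5 genes positive, 5 negative and a median of 0.0019. For ZES minus BMS, 9 of the 10 were positive with a median of 0.29, beside 50.7% of all genes, and 0 passed.

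Of 21 tested transcription factors and cytokines known to act on metalloprotease genes, 1 passed for SES minus BMS. The difference was positive for 18 of the 21, against 49.5% of all genes, with a median of 0.69. That gene was FOS, a subunit of the AP-1 factor that binds many MMP promoters, which rose by 4.64 (SE 0.78, limma adjusted p = 0.0167). FOS averaged 10.93 on SES, 8.11 on ZES and 6.29 on BMS arrays. In the same comparison 6 of 7 T and NK cell markers were higher with 2 past the threshold, and the GAPDH 3′ minus 5′ difference was 2.33 to 3.02 on SES against 3.64 to 4.63 on BMS arrays. Their part in the values of these 21 genes was not tested. The list was written with earlier results of these data known, so its counts are descriptions. For ZES minus SES, 16 of the 21 were negative, against 2868 of all 5793 genes tested, with a median of -0.65, and 0 passed. IL1B, a cytokine that induces MMP1 and MMP3 in many cells, was nearest, at -4.32 (SE 0.88, adjusted p = 0.0660), with means of 5.02 on ZES and 9.34 on SES arrays. It was above background on 9 of the 12 arrays, and its ZES mean lay within the ZES background levels of 4.19 to 5.16, so the size of the difference is uncertain.

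Of 26 tested matrix proteins cut by these enzymes, 2 passed for SES minus BMS. The difference was negative for 19 of the 26, against 2923 of all 5793 genes tested, with a median of -0.30. The 2 were the basement membrane chains LAMB2, laminin beta 2, which fell by 2.43 (SE 0.48, limma adjusted p = 0.0290), and COL4A2, collagen IV alpha 2, which fell by 2.04 (SE 0.45, adjusted p = 0.0471). Both are chains that vascular smooth muscle cells lay down, the 14 smooth muscle markers were lower in the same comparison, and their part in this result was not tested. For ZES minus SES, 19 of the 26 were positive, against 50.5% of all genes, with a median of 0.53. LAMB2 was nearest to the threshold, at 2.46 (SE 0.48, adjusted p = 0.0544). For ZES minus BMS, 16 of 26 were positive, against 50.7% of all genes, with a median of 0.11, and 0 passed.

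Over the 12 arrays, the genes with the most similar pattern to TIMP1, TIMP2, TIMP3, MMP2 and MMP3 were found among 5788 genes with 1 probe set each. The arrays share stent groups, pigs and technical gradients, so the correlations are descriptions. TIMP1 was most like ACSL5, an enzyme that activates fatty acids (Pearson r = 0.94, and 0.89 after group means were removed). Next came ANTXR2, a collagen-binding receptor (0.93 and 0.79), and ICAM1, an adhesion molecule for leukocytes (0.91 and 0.73). For MMP2 they were the growth factor IGF1 (0.90 and 0.88), the collagen-binding proteoglycan LUM (0.90 and 0.85) and LOC396796 (0.89 and 0.85). IGF1 and LUM also belong to the fibroblast and adventitial marker list.

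The TIMP2 probe set Ssc.11257.1.S1_at was most like LDHD, a mitochondrial lactate dehydrogenase (0.91 and 0.90), which was above background on 5 arrays. It was followed by the mitochondrial ribosomal protein MRPS2 (0.91 and 0.84) and the carnitine acetyltransferase CRAT (0.91 and 0.87). The TIMP3 probe set Ssc.9661.1.S1_at came nearest to PIGQ (0.83), C9H1orf27 (0.81) and KIF5C (0.74). The MMP3 probe set Ssc.15927.2.S1_at came nearest to PHF11 (0.84), PNPLA4 (0.83) and FECH (0.83). They were above background on 7 and 5 arrays, and each was listed at 0 on 1 array. Ssc.15927.2.S1_at had a Pearson r of 0.45 with Ssc.15927.2.A1_at, -0.24 with Ssc.15927.1.A1_at and -0.16 with Ssc.15927.1.S1_at, so its neighbours need not hold for the other MMP3 probe sets. Spearman rho was 0.26 for TIMP3 with KIF5C, 0.44 for TIMP3 with C9H1orf27 and 0.52 for MMP3 with PNPLA4, so that these pairs rest on few arrays.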

How the data were processed

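RNA of 12 stented pig coronary segments was hybridised to Affymetrix arrays. Per the labels' protocols, tissue was dissected from each stent by hand, and the RNA was amplified as cDNA and given a biotin label. Per the submitters' processing notes, the authors used MAS5 and Affymetrix Expression Console 5.0, and what they deposited is on a log2 scale. Their scale was read from the values: the linear signal, trimmed by 2% at each end, averaged 500.15 to 500.17 on every array. Zeros are a floor, not absence of RNA.

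From 24123 probe sets, 124 controls and then the 30% with the lowest mean were removed, which left 16799. This filter removed 3 of the 12 member probe sets. Gene names came from the platform annotation (10069 probe sets with 1 symbol, 198 with several, 13732 with none). Stent types were compared with limma 3.58.1 (R 4.3.3, statmod 1.5.0) on all arrays, with eBayes, a variance trend and the pig as a random block (consensus correlation -0.0322). The LAD minus RCA fit took the pig as a fixed block. Tests were two-sided, adjusted by Benjamini-Hochberg over all 16799, with a threshold of 0.05. Each group had 4 arrays from 2 pigs and each pig carried 1 stent type, so pigs are the independent units of the stent comparisons. With a consensus correlation of -0.0322, the block took arrays of the same pig as about independent. The fit on means per pig takes the pig as the unit. A probe set below background on every array of the dimmer group has its fold given as a bound, against the higher of background and its own signal. The bound is set on group means and leaves out the error between arrays.

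Named are all member probe sets; the 3 genes most like the brightest probe set of each member with a tested probe set; and, of each list of pathway genes, those past the threshold or, where none passed, up to 3 with the smallest p. The members and lists were chosen with earlier results of these data known. Alternatives changed the pig block, variance trend, filter, pseudocount, normalization, array weights, control covariates, arrays and pigs left out, and probe sets per gene. On simulated arrays for SES minus BMS (16799 probe sets, 50 changed at each size), 0, 16, 30 and 40 were called at log2 changes of 1, 2, 3 and 4.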

Additional observations from a re-analysis of the deposited data

Results flagged for a closer look

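Single arrays stood apart from the other 3 of their group in 3 of the 36 groups of 4 examined, where chance gives about 1 in 20. On the TIMP2 probe set Ssc.11257.1.S1_at, ZES 2 was at 12.40 and the other ZES arrays at 10.96 to 11.02. On the MMP3 probe set Ssc.15927.2.A1_at, ZES 4 was at 0.72 and the other ZES arrays at 3.50 to 4.00, all of them below background. On the MMP3 probe set Ssc.15927.2.S1_at, SES 4 was at 7.28 and the other SES arrays at 5.57 to 5.78.

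The LAD minus RCA difference had opposite signs under ZES and BMS, in both pigs of each, on 3 of the 9 tested probe sets. Of all tested probe sets, 17.4% showed this pattern. The 3 were among the 4 above background on every array, a subset for which no like share over the other genes was counted. For the TIMP2 probe set Ssc.11257.1.S1_at the sign in 1 ZES pig rests on a difference of 0.014. The other TIMP2 probe set, Ssc.1082.1.S1_at, lacked the pattern, at 0.57 and -0.46 in the BMS pigs. The mean LAD minus RCA difference was -0.85 with ZES and 0.38 with BMS for TIMP1. It was 0.70 with ZES and -1.0 with BMS for the TIMP2 probe set Ssc.11257.1.S1_at, and 0.83 with ZES and -0.43 with BMS for MMP2. The test of the difference between the stents, chosen after the values were seen, gave limma adjusted p of 0.607, 0.561 and 0.624.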

How the results depend on the processing

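The 1 member probe set called for SES minus BMS, TIMP1, became 0 without a variance trend, with means per pig, with the spike-in level or the GAPDH difference in the model and, in an alternative chosen after seeing the data, with the 6 RCA arrays alone (1.64, adjusted p = 0.129); the cause was not tested. Leaving out single arrays or pigs gave 0 to 1 called for SES minus BMS. Without either SES pig the TIMP1 difference was 1.44 (adjusted p = 0.330) and 1.42 (adjusted p = 0.111), and without either BMS pig it was 1.55 (adjusted p = 0.0613) and 1.30 (adjusted p = 0.0603). The F test called 0 member probe sets, but 1 with array weights, and 0 to 1 when single arrays or pigs were left out; that 1 arose without ZES 1 and without its pig. Over 961 values of single member probe sets in the stent and artery differences, the F test left out, 14 lost a call, all TIMP1 for SES minus BMS, 0 gained one and 0 turned a called sign, while 58 uncalled values turned sign, 50 of them on the dim probe sets of TIMP3 and MMP3. Over all probe sets, calls ranged from 0 to 673 for SES minus BMS, from 0 to 71 for ZES minus BMS and from 0 to 306 for ZES minus SES, with 0 without SES 3 and 415 without SES 4 for SES minus BMS. With the mean of all probe sets of a gene, the median of smooth muscle contractile markers, SES minus BMS, was -1.11 in place of -2.12, the median of matrix substrates, SES minus BMS, was -0.50 in place of -0.30, and the median of cysteine cathepsins and cystatins, SES minus BMS, was -0.043 in place of 0.0019. No paired analysis was possible for the stent comparisons because each pig carries 1 stent type and the array numbers are names given in accession order. Signals near background limit TIMP3, MMP1 and MMP3.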
